A study of Melitaea cinxia with 170 samples.

Results

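The 60 male-biased gene models of the butterfly thorax described here were chosen by a measured value, the ratio of median expression in males to that in females. For each butterfly, read counts were divided by the total of the butterfly and scaled to a fixed total, the usual CPM unit of sequencing. A gene model had to reach a median of at least 3 CPM in the 32 males, which 4903 of 16667 did. The log2 ratio of the male to the female median, with 0.5 CPM added to each median, was then taken separately for each of the islands AL (Åland) and PT (Pikku Tytärsaari), and the 60 with the highest smaller ratio were kept. The sex difference of these gene models was therefore set by the choice and is described below without a test.

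The series holds thorax RNA sequencing of 85 Glanville fritillary butterflies (Melitaea cinxia) of these islands in the Baltic Sea. Flown butterflies were frozen 1 h after the start of a flight treatment (12 males and 17 females) or about 20 h after it, following a night in single cages with food (11 males and 19 females). Control butterflies were handled in the same way without the flight and were frozen at the same times (5 males and 8 females at 1 h, 4 males and 9 females at 20 h). AL gave 15 males and 25 females, PT gave 17 males and 28 females, and the labels used here give neither age nor mating status.

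The thorax carries the wings and legs and is largely filled by flight muscle, alongside fat body, nerve tissue, tracheae and cuticle. In butterflies and moths, males carry a pair of Z chromosomes and females a Z and a W, and dosage compensation brings much of the Z expression of the sexes close to each other. Sex differences in adult body tissue can also concern muscle and fat storage. Gene models are known here by the project's identifiers alone, of which 0 of 16667 matched the reference table of gene names for this species, so no name, function, chromosome or sequence is given for any member. For the same reason the tissue could not be checked by its marker genes, and membership was not compared with the Z chromosome. Fewer cells of a type and less RNA per cell cannot be told apart in whole thoraces.

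Totals ran from 1820059 to 6944328 counts per butterfly. They averaged 4782166 ± 1159478 in males (SD, n = 32) and 3636567 ± 1047135 in females (SD, n = 53). The scaling factors of the TMM method, which set libraries to a common level over most genes, averaged 0.866 in males and 1.11 in females. With raw totals, the median log2 ratio of males to females over the 4903 gene models was -0.29, and with TMM-scaled totals it was 0.03. The 60 members had a median log2 ratio of 0.97 over raw totals and 1.3 over TMM-scaled totals, so their level above the other gene models differed little between the scalings.

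Members spanned a wide range of expression, whose lower bound of 3 CPM in the male median was set by the choice. The median in males ran from 3.28 to 31448 CPM and had a midpoint of 38.4 CPM. By the male median, 13 members lay under 10 CPM, 26 between 10 and 100 CPM, 7 between 100 and 1000 CPM and 14 at 1000 CPM or more. CPM is a share of reads, and without gene lengths it does not rank different genes by their number of transcripts. All 60 passed the expression filter of the tests below, which kept 7643 gene models. Behind the medians stood between 17 and 148384 reads per male and between 2 and 53219 reads per female.

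Together the members held a much larger share of all reads in males. The share averaged 12.2% ± 1.53 in males, with a range from 9.27% to 14.8%, and 6.31% ± 1.46 in females, with a range from 3.26% to 10.5% (SD, n = 32 and 53). Nearly all of it came from the 14 members of 1000 CPM or more, which held 11.8% ± 1.51 in males and 6.15% ± 1.44 in females. Only 1 of them was among the 10 most abundant gene models of the thorax. The highest male medians among the members were 31448 CPM for MCINXTMP_001600, 17158 CPM for MCINXTMP_010949 and 13567 CPM for MCINXTMP_006129.

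**Figure D1:**
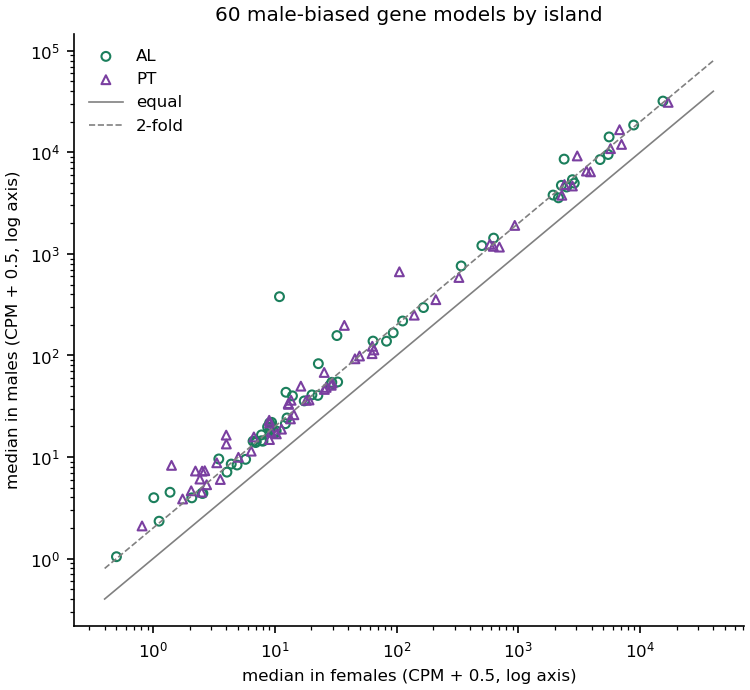
Median expression of each of the 60 gene models in males (vertical axis) against females (horizontal axis), in CPM plus 0.5 on log axes, with circles for AL and triangles for PT; the solid line marks equality and the dashed line a 2-fold higher male median. Points lie along the dashed line over the range of expression of the members. MCINXTMP_008527 in AL, at 379 CPM in males and 10.4 CPM in females, lies farthest above the dashed line.

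The size of the difference was of the same order on both islands, which the ranking by the smaller island ratio favours. This size also depended on the scaling. The smaller of the island ratios, which ranked the members, ran from 0.72 to 2.66 on the log2 scale with a median of 0.86. Ratios had a median of 1 in AL (0.72 to 5.12) and 0.97 in PT (0.72 to 2.66). On both islands, 17 members were over 2-fold higher in males and 2 were over 4-fold higher, in CPM over raw totals. For medians over both islands together, 28 members were over 2-fold higher in males over raw totals and 56 over TMM-scaled totals, against 36 and 128 of all 4903 gene models. The ratio was the larger in AL for 30 members and the larger in PT for the other 30.

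At the edge of the choice, the last members were MCINXTMP_005585 and MCINXTMP_015004, both at a score of 0.72. MCINXTMP_005585 had medians of 13.4 CPM in males and 6.46 CPM in females of AL, and 16.4 CPM in males and 9.79 CPM in females of PT. MCINXTMP_015004 had 8497 CPM in males and 4698 CPM in females of AL, and 6434 CPM in males and 3916 CPM in females of PT. The first gene models left out, MCINXTMP_011353 and MCINXTMP_005842, had scores of 0.71 each. In AL, MCINXTMP_005842 had medians of 2063 CPM in males and 812 CPM in females, a larger ratio than many members, but in PT they were 1668 CPM in males and 1018 CPM in females. MCINXTMP_011353 had 683 CPM in males and 377 CPM in females of AL, and 758 CPM in males and 462 CPM in females of PT.

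MCINXTMP_015668, the second by score, was the member that separated the sexes completely. It ran from 102 to 283 CPM in males with a median of 176 CPM (n = 32), and from 8.68 to 61.1 CPM in females with a median of 32.5 CPM (n = 53). The lowest male had 1.66 times the CPM of the highest female over all islands and treatments. Medians were 157 CPM in males and 31.9 CPM in females of AL, and 197 CPM in males and 36.8 CPM in females of PT. Of the 60 members, 1 had no overlap of the sexes, and of the 4903 gene models it was also the only such one with males above females (0.0204%). Because the choice favoured such gene models, nothing is read from this count.

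The other members overlapped between the sexes. In the median member, 28 of 32 males lay above the female median and 7 of 53 females above the male median. MCINXTMP_003639, MCINXTMP_012197 and MCINXTMP_011122 were named by a rule that ranked the members by the lowest male relative to the highest female, leaving out members named by another rule. MCINXTMP_003639 ran from 3032 to 7337 CPM in males (median 3948 CPM) and from 1378 to 3714 CPM in females (median 2355 CPM), with 5 females above the lowest male. MCINXTMP_012197 ran from 747 to 2594 CPM in males (median 1254 CPM) and from 192 to 1221 CPM in females (median 627 CPM). MCINXTMP_011122 ran from 747 to 2068 CPM in males (median 1169 CPM) and from 235 to 1326 CPM in females (median 604 CPM). In all 3 every male lay above the female median, but the ranges of the sexes overlapped. Above the lowest male lay 10 females in MCINXTMP_012197 and 18 in MCINXTMP_011122. Of the 32 males, 23 in MCINXTMP_003639, 17 in MCINXTMP_012197 and 8 in MCINXTMP_011122 lay above every female.

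The most abundant members overlapped between the sexes as well. MCINXTMP_001600 ran from 22862 to 42943 CPM in males (median 31448 CPM) and from 7437 to 31923 CPM in females (median 16162 CPM). MCINXTMP_010949 ran from 13172 to 25862 CPM in males (median 17158 CPM) and from 1646 to 21223 CPM in females (median 7801 CPM). MCINXTMP_006129 ran from 7573 to 22245 CPM in males (median 13567 CPM) and from 2111 to 11880 CPM in females (median 5571 CPM). In each of them every male lay above the female median. Above every female lay 15 of 32 males in MCINXTMP_001600, 4 in MCINXTMP_010949 and 20 in MCINXTMP_006129. MCINXTMP_005551, the fourth by score, had medians of 8583 CPM in males and 2379 CPM in females of AL, and 9222 CPM in males and 3049 CPM in females of PT, and 24 of its 32 males lay above every female.

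At the low end, MCINXTMP_011680, the third by score, was at the limit of detection in many females. It had 0 to 28.7 CPM in males with a median of 6.35 CPM and 0 to 10 CPM in females with a median of 0.913 CPM. No read was counted in 3 of 32 males and 17 of 53 females, and the median butterfly gave 25.5 reads in males and 3 in females. Across the members, 7 had at least 1 male at 0 and 21 at least 1 female at 0, and 39 were detected in all 85 butterflies.

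**Figure D2:**
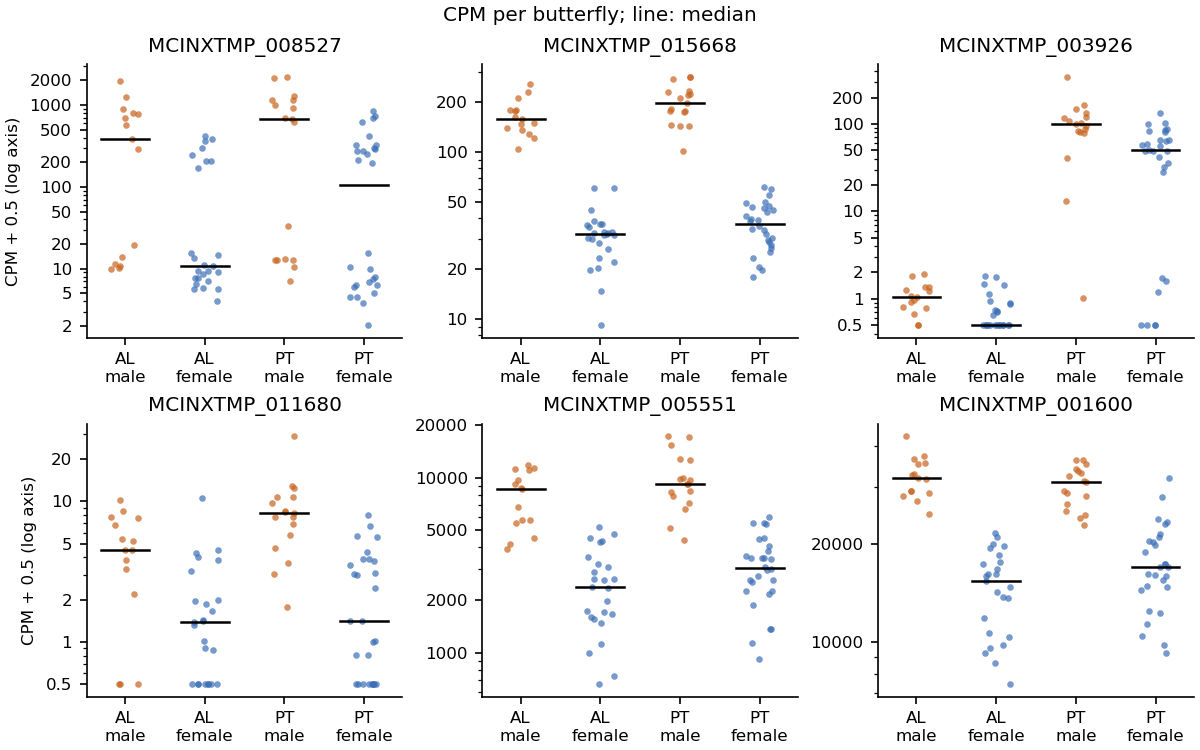
CPM plus 0.5 of 6 members in each butterfly on log axes, with a column of points for the males (orange) and the females (blue) of each island and a line at the median. The sexes separate fully in MCINXTMP_015668, values fall into 2 clouds in MCINXTMP_008527, and MCINXTMP_003926 is near 0 in every AL butterfly.

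MCINXTMP_008527 had the highest score but did not differ evenly between the sexes. Its medians were 379 CPM in males and 10.4 CPM in females of AL, and 667 CPM in males and 105 CPM in females of PT. Single butterflies were either low, with at most 33.2 CPM in 44 of them, or high, with at least 170 CPM in 41, and none lay between. The high values were found in 19 of 32 males (9 of 15 in AL, 10 of 17 in PT) and in 22 of 53 females (8 of 25 in AL, 14 of 28 in PT). Males of the high range had 290 to 2221 CPM and females of it 170 to 847 CPM. Males of the low range had 6.49 to 33.2 CPM and females of it 1.55 to 15.2 CPM. The ratio of 34.7 in AL therefore sets a median of the high range in males against a median of the low range in females. In PT females each range held 14 of 28, so their median of 105 CPM lies in the gap, at a level that no butterfly had, and the score of 2.66 rests on it. The high range held 14 of 29 flown and 6 of 13 control butterflies at 1 h, and 14 of 30 flown and 7 of 13 control butterflies at 20 h.

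MCINXTMP_003926 was the other member with such a gap, here between 1.4 and 12.6 CPM. It had 0 to 1.4 CPM in all 40 AL butterflies. In PT, 16 of 17 males and 21 of 28 females lay above the gap, with 12.6 to 346 CPM in these males and 27.3 to 131 CPM in these females. Its place among the members thus rests in AL on medians of 0.544 CPM in males and 0 CPM in females, a difference of less than 1 CPM. A gap of at least 2 on the log2 scale with at least 10 butterflies on each side was found in 2 of the 60 members and in 2 of all 4903 gene models (0.0408%), so these were the same gene models. The gap was looked for after these values had been seen.

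Within each sex, members varied less among males than among females. The robust SD of log2(CPM + 0.5) had a median of 0.69 over the members in males and 1.04 in females, and 8 of 60 members had the wider spread in males. The widest in males were MCINXTMP_003926 at 4.7 and MCINXTMP_003386 at 2.43, and the narrowest was at 0.21. These SDs pool both islands and all treatments, so the 4.7 of MCINXTMP_003926 includes its difference between the islands. They were not computed over all gene models, so the smaller spread in males is not read as a trait of the members. Levels and read totals were also lower in females, and their part in this spread was not tested.

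The ratio between the sexes held in each treatment by direction for nearly all members. Flown butterflies at 1 h had 59 of 60 members with the higher median in males, and controls at 1 h had 56. At 20 h it was 57 members in flown butterflies and 56 in controls. The median log2 ratio was 0.96 in flown butterflies and 0.84 in controls at 1 h, and 1.11 in flown butterflies and 0.98 in controls at 20 h. All these butterflies also served to choose the members, so the counts only show how evenly the choice rests on the treatments. The choice itself weighs flown butterflies more, at 23 of 32 males and 36 of 53 females. Among controls alone, 23 of the 60 members would have been chosen, from 9 males and 17 females.

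The choice took no difference between flown and control butterflies, so flight was tested. The tests are not independent of the choice, since flown butterflies weighed most in its medians: a lower level in flown females raises the ratio by which members were chosen, as does a higher level in flown males. Counts of members are therefore given beside the share of all gene models without reading an excess from them. The model was fitted by edgeR to all 7643 gene models with Benjamini-Hochberg adjustment over all of them, and a gene model was called at an adjusted p under 0.05. Fold changes are on the TMM-scaled level, flown over control, with sex as an additive term and the mean taken over both islands.

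At 1 h after the start of flight, 1 of the 60 members was called, against 0.327% of all gene models. MCINXTMP_003386 was higher after flight over both sexes, and its median was higher after flight in either sex. In males it had 4.43 to 93.3 CPM after flight (median 47.7 CPM, n = 12), and 0, 1.73, 4.26, 12.6 and 29.8 CPM in the 5 controls. Females had 0.638 to 149 CPM after flight (median 59.1 CPM, n = 17) and 0 to 14.8 CPM in controls (median 1.73 CPM, n = 8). Most flown butterflies of either sex lay above every control of that sex. Some flown butterflies were as low as the controls, and all of these were from PT. Flown AL butterflies had 44.4 to 93.3 CPM. A difference between the islands in the flight effect was not tested. The log2 fold change was 3.67 ± 0.66 (SE; edgeR adjusted p = 0.000874), and by island it was 5.21 in AL and 2.12 in PT. By the test within sexes it was 4.01 ± 0.85 in females (edgeR adjusted p = 0.0171) and 2.47 ± 0.98 in males (edgeR adjusted p = 0.999).

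MCINXTMP_003386 had the higher median in females after flight at 1 h. In these butterflies its median was 47.7 CPM in males and 59.1 CPM in females, and the ratio of males to females on the log2 scale was -0.31, the lowest of the members. In flown butterflies at 20 h its medians were 10.6 CPM in males and 7.42 CPM in females. Controls of that time had medians of 3.98 CPM in males and 9.76 CPM in females. Single female controls at 20 h ran from 1.26 to 78.6 CPM (n = 9), with 35.5, 39.9, 72 and 78.6 CPM in the highest. High values of MCINXTMP_003386 thus also occurred without flight. The flight difference of MCINXTMP_003386 at 20 h was -0.79 ± 0.52 (SE; edgeR adjusted p = 0.541).

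The other 59 members were not called at 1 h. Over the 60, log2 fold changes had a median of -0.07, against 0.01 over all gene models, and 37 of 60 were below 0, against 48.5% of all. At an unadjusted p under 0.05 there were 5 members, 3 higher and 2 lower, against 7.6% of all gene models. Within females 13 members had an unadjusted p under 0.05, 4 higher and 9 lower, against 10.2% of all in either direction. The choice favours a lower level in flown females, so no excess is read from this count. By adjusted p, 1 member was called within females, against 0.419% of all, and this was MCINXTMP_003386. That call within females was lost without AL female control 1 (edgeR adjusted p = 0.068) or without PT female control 2 (0.0671), while the call over both sexes held without any of the 31 butterflies left out in turn. Within males 0 of 60 were called by edgeR, against 0% of all, with 2 members at an unadjusted p under 0.05, against 4.46% of all, and 0 members by DESeq2.

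At 20 h, 5 of the 60 members were called and all 5 were lower after flight. Of all 7643 gene models, 1.71% were called and 0.628% were called lower. MCINXTMP_009288 and MCINXTMP_010949 are the members of smallest p, and the other 3 are named here after their values were seen.

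MCINXTMP_009288 was lower after flight at 20 h over both sexes, and its median was lower after flight in either sex. In males it had 256 to 606 CPM after flight (median 537 CPM, n = 11) and 502, 665, 761 and 875 CPM in the 4 controls. Females had 123 to 502 CPM after flight (median 257 CPM, n = 19) and 150 to 982 CPM in controls (median 457 CPM, n = 9). The groups overlapped in either sex, with the flown butterflies at the lower end. The log2 fold change was -1.01 ± 0.21 (SE; edgeR adjusted p = 0.00363). By island it was -1.24 in AL and -0.79 in PT, and it kept its call without any of the 31 butterflies left out in turn. At 1 h the same difference was -0.31 ± 0.21 (edgeR adjusted p = 0.771).

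MCINXTMP_010949, with the second highest median of all members in males, was lower after flight at 20 h over both sexes. In females it had 1646 to 13050 CPM after flight (median 6620 CPM) and 6552 to 21010 CPM in controls (median 10819 CPM). In males it had 13172 to 19177 CPM after flight (median 15680 CPM) and 14460, 16120, 19200 and 20060 CPM in the 4 controls. The log2 fold change was -0.75 ± 0.19 (SE; edgeR adjusted p = 0.0214), and by island it was -0.65 in AL and -0.86 in PT. By sex it was -0.28 ± 0.34 in males and -1.01 ± 0.23 in females, and the difference between the sexes in the flight effect, averaged over both times, was 0.64 ± 0.29 (edgeR adjusted p = 0.391). The call at 20 h was lost without AL female control 3 (adjusted p = 0.0899 by edgeR), AL female control 4 (0.0508) or PT female control 4 (0.101) of that time, and with the 450 nt libraries alone (0.0515).

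MCINXTMP_010442, MCINXTMP_003639 and MCINXTMP_007782 were the other members called at 20 h. MCINXTMP_010442 had medians of 4160 CPM after flight and 5059 CPM in controls among males, and of 1825 CPM after flight and 3362 CPM in controls in females, which the fit put at -0.78 ± 0.2 in log2 units (SE; edgeR adjusted p = 0.0214). MCINXTMP_003639 had medians of 3782 CPM after flight and 4071 CPM in controls in males, and of 1867 CPM after flight and 2514 CPM in controls in females, which the fit put at -0.46 ± 0.13 in log2 units (edgeR adjusted p = 0.0378). MCINXTMP_007782, a member of lower level, had medians of 17.2 CPM after flight and 38.5 CPM in controls in males, and of 10.3 CPM after flight and 20 CPM in controls in females, which the fit put at -1.01 ± 0.29 in log2 units (edgeR adjusted p = 0.044). In each of the 3 the male and the female median were both lower after flight.

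**Figure D3:**
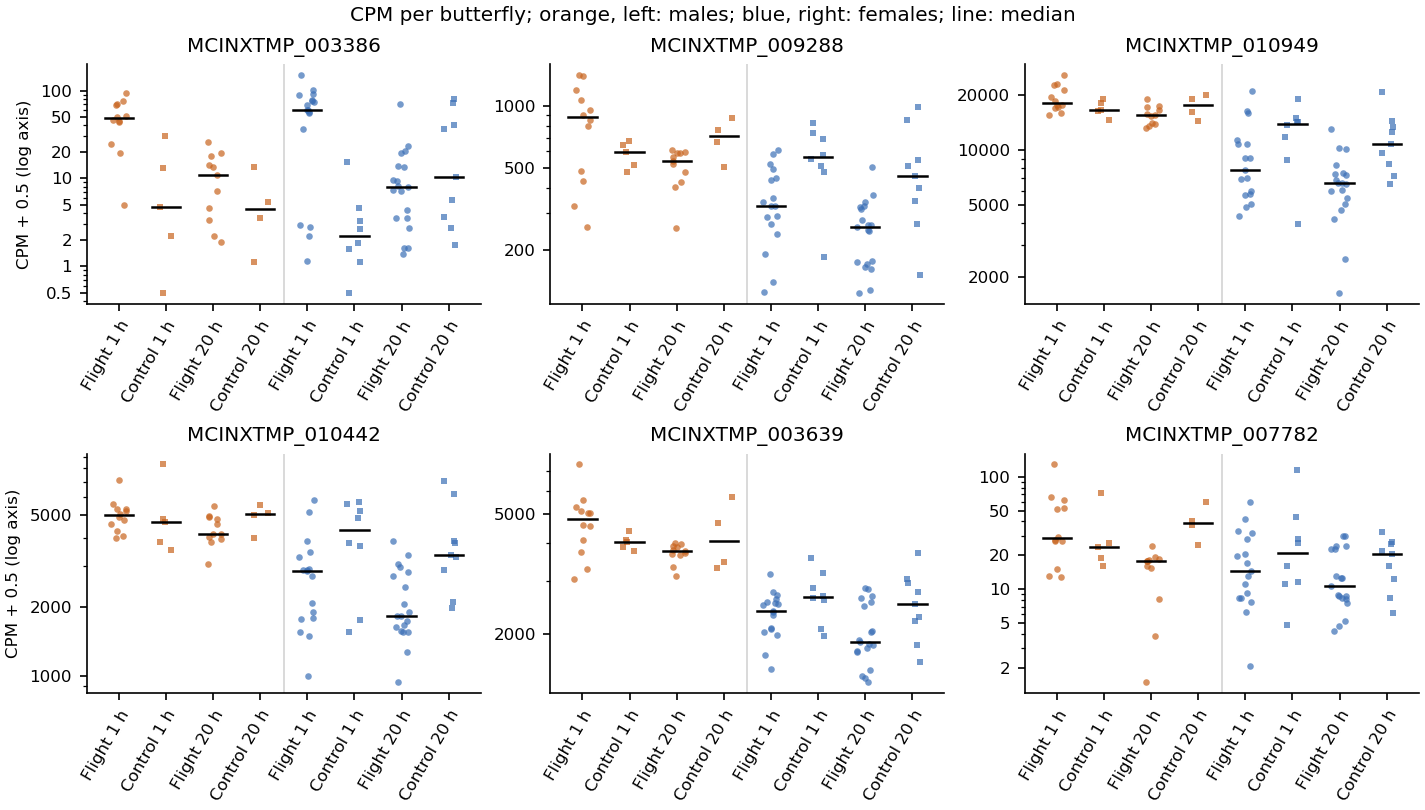
CPM plus 0.5 on log axes of the 6 members called for flight, in each butterfly, with males (orange) left and females (blue) right of the grey line, flight beside its control at 1 h and at 20 h, and a line at the median. MCINXTMP_003386 is higher after flight at 1 h, and the other 5 are lower after flight at 20 h, with overlap between flown and control butterflies.

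The count of 5 leans on single controls. It fell to 1 without AL female control 3 or PT female control 4 of 20 h. It was 3 without AL female control 4, AL male control 1 or 2, or PT female control 1, 2 or 5 of 20 h, and also without PT female control 3 or PT male control 1 or 2 of 1 h. It was between 4 and 6 without each of the other butterflies of groups of up to 5, and no member was called higher at 20 h in any of these fits.

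Lower values at 20 h were common among the members beyond the 5 calls. Of the 60, 45 had a log2 fold change below 0, against 47.7% of all gene models, and the median was -0.31, against 0.02 over all. At an unadjusted p under 0.05 there were 17 members, all 17 lower, against 14.1% of all gene models in either direction. The share of all gene models lower at that p was not counted. The choice favours a lower level in flown females, so no excess is read from these counts. The scaling moves these counts. For medians within each sex over raw totals, 39 members were below 0 in males and 38 in females, against 41% and 42.9% of the 4903 gene models. Over TMM-scaled totals 47 members were below 0 in males and 40 in females, against 53.3% and 53.5%. The median of the members was below 0 in either sex under either scaling, at -0.16 in males and -0.18 in females over raw totals.

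A log2 fold change below 0 was more frequent among the members of 100 CPM or more, although the members of lower level were more numerous. Among the 14 of 1000 CPM or more, 13 were below 0 and 3 were called, and among the 7 of 100 to 1000 CPM all 7 were below 0 and 1 was called. Among the 26 of 10 to 100 CPM, 16 were below 0 and 1 was called, and among the 13 under 10 CPM, 9 were below 0 and 0 were called. Medians of the log2 fold change were -0.42, -0.29, -0.2 and -0.1 from the most to the least abundant class. These classes were not counted over all gene models. A trait of the members therefore cannot be told from one of abundant transcripts in general. The share of all reads in the 60 members was 11.2% ± 0.982 in flown males and 12.1% ± 1.37 in control males at 20 h (SD, n = 11 and 4). In females it was 5.43% ± 1.07 in flown and 7.14% ± 1.59 in control butterflies (SD, n = 19 and 9). The 10 most abundant gene models, of which 1 is a member, held 23.4% ± 3.96 of the reads in flown and 27.9% ± 4.21 in control females at that time. The TMM factor averaged 1.08 in flown and 0.964 in control butterflies at 20 h, and the part of these shifts in the members' fold changes was not tested.

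**Figure D4:**
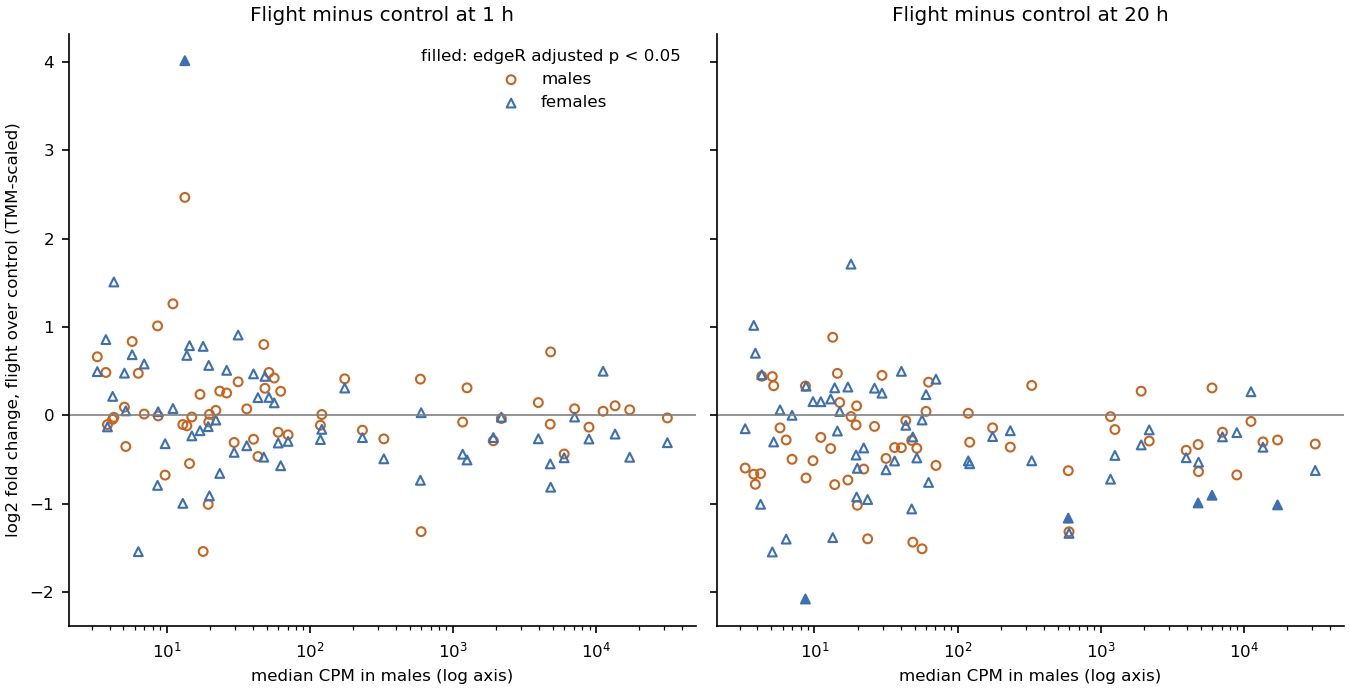
Log2 fold change of flown over control butterflies for each of the 60 members at 1 h (left) and 20 h (right), against the median CPM in males on a log axis, with circles for males and triangles for females; filled symbols have an edgeR adjusted p under 0.05. At 20 h most members lie below 0 in both sexes, and the 5 filled symbols, all lower, belong to females.

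Within females at 20 h, 5 of 60 members were called, all lower, against 2.72% of all gene models in either direction and 1.27% lower. Low medians in females, most of them flown, were part of the choice, which favours such members, and no excess is read from this count. The log2 fold change was -1.16 ± 0.25 for MCINXTMP_009288 (SE; edgeR adjusted p = 0.00538) and -1.01 ± 0.23 for MCINXTMP_010949 (edgeR adjusted p = 0.00793). The others were MCINXTMP_010442 at -0.99 ± 0.24 (edgeR adjusted p = 0.012), MCINXTMP_013189 at -0.9 ± 0.22 (0.0121) and MCINXTMP_013187 at -2.08 ± 0.54 (0.0198), named after their values were seen. The count was 8 without AL female control 2, 3 without AL female control 3 and 2 without PT female control 4 of 20 h. Over the 60, 41 were below 0 and the median was -0.32. These females are part of the test over both sexes, so the lists are not independent.

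Within males at 20 h, 0 of 60 members were called by edgeR, against 0.0393% of all gene models, with 3 members at an unadjusted p under 0.05, all lower, against 6.01% of all in either direction, and 0 by DESeq2. Log2 fold changes in males ran from -1.51 to 0.88, with a median of -0.3 and 45 of 60 below 0. The smallest p belonged to MCINXTMP_012777. It had 6.42 to 219 CPM after flight (median 26.8 CPM, n = 11) and 18.1, 112, 181 and 187 CPM in the 4 controls, with -1.51 ± 0.5 in log2 units from the fit (SE; edgeR adjusted p = 0.501). This member differs strongly between the islands, as given below, and with 4 control males, 2 from each island, its groups overlap.

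A difference between the sexes in the response to flight was tested as an interaction, averaged over 1 h and 20 h. By edgeR 0 of 60 members were called, against 0.523% of all gene models, with 8 members at an unadjusted p under 0.05, against 10.9% of all gene models. DESeq2 was run on all gene models with reads, not only on the 7643, and called 1 member and 133 gene models in all. The number left after its own filtering was not counted, so no share is set beside the member. The member called by DESeq2 and of smallest p by edgeR was MCINXTMP_013187, at 2.11 ± 0.7 (SE; edgeR adjusted p = 0.153; DESeq2 adjusted p = 0.0459). In males it had medians of 10.2 CPM after flight and 8.63 CPM in controls at 1 h, and of 6.07 CPM after flight and 7.4 CPM in controls at 20 h. In females it had medians of 2.9 CPM after flight and 5.8 CPM in controls at 1 h, and of 1.62 CPM after flight and 6.71 CPM in controls at 20 h. Calls made in females and not in males are thus not shown to differ between the sexes by edgeR.

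The islands differed in 31 of the 60 members, against 43.9% of all gene models, so a difference between islands was frequent in members and in other transcripts alike. Of the 31, 14 were higher and 17 lower in AL than in PT. The median log2 fold change was -0.06, against 0.03 over all gene models, and its absolute value had a median of 0.55, against 0.46 over all. The choice asked for a sex ratio on each island and set no condition on the level of either.

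Among members higher in AL, MCINXTMP_004883 had 2106 to 6452 CPM in AL males and 667 to 2028 CPM in PT males, with medians of 3799 CPM in AL and 1242 CPM in PT. Females had 932 to 4001 CPM in AL and 319 to 1570 CPM in PT, with medians of 1930 CPM in AL and 583 CPM in PT. In males the islands did not overlap, and in females their tails did. The log2 fold change of AL over PT was 1.75 ± 0.14 (SE; edgeR adjusted p = 2.86e-19).

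MCINXTMP_012777 had 65.1 to 244 CPM in AL males (median 167 CPM) and 3.34 to 112 CPM in PT males (median 22.5 CPM). Females had 35.4 to 222 CPM in AL (median 93.3 CPM) and 0.446 to 50.4 CPM in PT (median 8.49 CPM). The difference between the islands, at 2.85 ± 0.24 (SE; edgeR adjusted p = 1.67e-17), was larger than that between the sexes on either island, and the median of AL females lay above that of PT males.

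Among members lower in AL, MCINXTMP_004829 had 2.38 to 49.1 CPM in AL males and 59 to 239 CPM in PT males, without overlap. In females it had 0 to 19.2 CPM in AL and 17.6 to 164 CPM in PT. The log2 fold change was -3.13 ± 0.24 (SE; edgeR adjusted p = 2.64e-19). For MCINXTMP_003926, the member with no AL butterfly above 1.4 CPM, it was -7.34 ± 0.55 (edgeR adjusted p = 1.75e-19). That fitted value depends on the few reads in AL, where 15 of 40 butterflies had none.

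**Figure D5:**
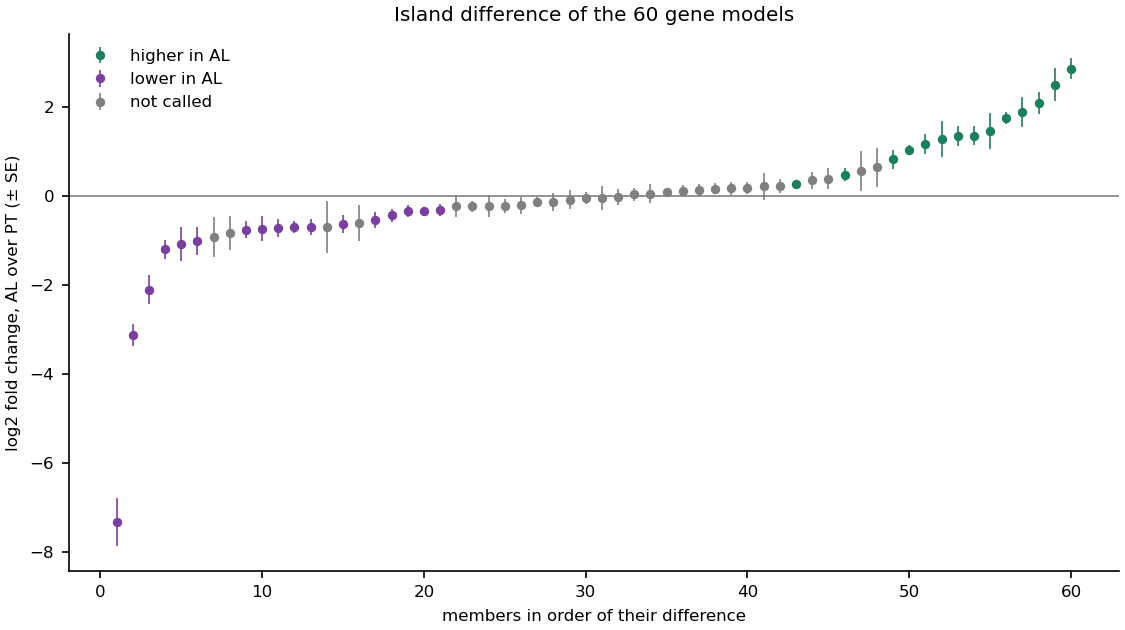
Log2 fold change of AL over PT with its standard error for each of the 60 members in order of size; green points are higher and purple points lower in AL at an edgeR adjusted p under 0.05, and grey points were not called. There are 14 green and 17 purple points, and MCINXTMP_003926 at -7.34 stands apart at the lower end.

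MCINXTMP_005998 and MCINXTMP_005999 were the only members with consecutive identifiers, whose order on the genome is not given in the sources used here. Both were low and higher in AL. MCINXTMP_005998 had medians of 6.6 CPM in males and 3.54 CPM in females of AL, and 1.6 CPM in males and 0.312 CPM in females of PT. MCINXTMP_005999 had medians of 8.03 CPM in males and 3.88 CPM in females of AL, and 3.36 CPM in males and 1.25 CPM in females of PT. After the means of each island and treatment were subtracted, their log2 values correlated across butterflies with r = 0.33 in 32 males and r = 0.33 in 53 females.

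Members of high level had higher pairwise correlations in females than in males. Over the 14 members of 1000 CPM or more, the median correlation of log2 values between pairs, after the same subtraction, was 0.1 in males and 0.37 in females. Over the 133 other gene models of that level it was 0 in males and 0.01 in females, and over all 4903 it was 0.03 in males and 0.07 in females. The other 46 members had medians of 0.01 in males and 0.04 in females. Values of a butterfly share its library total, RNA preparation and tissue makeup, and the part of these in the correlations was not tested.

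Each butterfly gave a library with an average insert of 650 nt and another of 450 nt, which allows a check of the same RNA under different library construction. By limma on within-butterfly differences, 19 of 60 members differed between the insert sizes, against 22.2% of all gene models, 8 higher and 11 lower in the 650 nt library. MCINXTMP_006129 ran from 1569 to 15376 CPM in the 650 nt libraries (median 5014 CPM) and from 2685 to 28494 CPM in the 450 nt libraries (median 9646 CPM). It was lower in the 650 nt library in 85 of 85 butterflies, with a log2 difference of -0.85 ± 0.04 (SE; limma adjusted p = 4.59e-35). MCINXTMP_004883 was likewise lower in 85 of 85, with medians of 976 CPM at 650 nt and 1651 CPM at 450 nt and a log2 difference of -0.52 ± 0.05 (limma adjusted p = 6.66e-14).

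Among members higher at 650 nt, MCINXTMP_010949 had medians of 14355 CPM at 650 nt and 11928 CPM at 450 nt, a log2 difference of 0.28 ± 0.02 (SE; limma adjusted p = 3.31e-17). Its CPM was higher at 650 nt in 73 of 85 butterflies and lower in 12. MCINXTMP_001600 had 20951 CPM at 650 nt and 19602 CPM at 450 nt, a log2 difference of 0.16 ± 0.02 (limma adjusted p = 5.82e-14). This shift was less uniform, with a higher CPM at 650 nt in 51 of 85 butterflies and a lower one in 34. Every butterfly of either sex had both kinds of library. When the choice was repeated on a single insert size, the 650 nt libraries gave 38 and the 450 nt libraries 35 of the 60 members.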

How the data were processed

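Thorax RNA of 85 butterflies was sequenced as 170 libraries. Per the labels' protocols, libraries were strand-specific, anchored at the polyA tail, and each butterfly gave a library with an average insert of 450 nt and another of 650 nt. CASAVA 1.8, TopHat2 2.0.5 and edgeR were used, per the submitters' processing notes. The build, annotation, counting tool and strand setting is in each case not given in the sources used here, so overlapping genes or near-identical copies may share reads. Read counts for the 16667 gene models were deposited by the authors as whole numbers, without normalization, with 659410 to 4349250 counts per library. A deposited normalized table was not used.

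Both libraries of a butterfly were summed. Gene models were filtered with filterByExpr over the 4 treatments and scaled by TMM, and tested with edgeR 4.0.16 (quasi-likelihood F test, robust, R 4.3.3) on all 85 butterflies. Flight and island used the means of the 8 island by treatment cells with sex as an additive term. Effects within each sex and their difference used the 8 sex by treatment cells with island as an additive term. The standard error (SE) of a fold change was derived from its size and the F statistic. Insert sizes were compared within butterflies with limma 3.58.1, as the difference of the log2 CPM of both libraries (prior count 2). P-values were Benjamini-Hochberg adjusted over 7643 gene models and cover the spread between butterflies, which the labels make separate individuals. Replicate numbers within a group follow accession order and only name a butterfly. The procedure was tested on simulated data.

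Alternatives were DESeq2 1.42.0, DESeq2 size factors in edgeR, no count filter, a single insert size, a prior count of 0.5 for the insert test, and leaving out each of 31 butterflies of groups of 2 to 5 in turn. The robust SD is the median absolute deviation scaled to match an SD. The members, tests and rule for named gene models were chosen with earlier results of these data known. Named were the 4 highest scores, those at the edge of the choice, the 3 highest levels, the 3 nearest to separating the sexes, the 2 widest in males, consecutive identifiers, and per test up to 2 called in each direction or, with none called, the smallest p. Identifiers were compared with the reference table of assembly ilMelCinx1.1 and 0 matched. Members of low level rest on few reads, and the part of counting error in their spread was not tested.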

Additional observations from a re-analysis of the deposited data

Results flagged for a closer look

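Within groups of 4 to 10 butterflies, 180 sets of values were examined, of 14 gene models and of the share of reads in the 60 members. In 20 of them (11.1%) the highest or lowest butterfly stood far from the others by Dixon's criterion, which chance alone reaches in about 1 of 20 sets, and the sets are not independent, since they share butterflies and skewed values on the linear scale.

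MCINXTMP_008527, whose values fall into a low and a high range, gave 5 of them. Among AL females, flown butterfly 2 at 1 h had 170 CPM (others at most 15.2 CPM) and control 1 at 1 h had 298 CPM (others at most 8.92 CPM), while control 2 at 20 h had 5.1 CPM (others at least 366 CPM). Among PT females at 20 h, flown butterfly 5 had 693 CPM (others at most 323 CPM) and control 5 had 847 CPM (others at most 5.77 CPM).

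Of the members named for flight, MCINXTMP_003386 had 69.5 CPM in flown PT female 7 at 20 h (others at most 18.9 CPM). MCINXTMP_009288 had 256 CPM in flown PT male 1 at 20 h (others at least 475 CPM). MCINXTMP_010949 had 8868 CPM in AL female control 4 at 1 h (others at least 14270 CPM). MCINXTMP_013187 had 35.4 CPM in flown AL female 4 (others at most 14.2 CPM), 17.5 CPM in flown PT female 9 (others at most 8.64 CPM) and 79.7 CPM in AL female control 1 (others at most 17.1 CPM), all at 1 h.

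Of the members that differ between the islands, MCINXTMP_012777 had 244 CPM in flown AL male 5 at 1 h (others at most 181 CPM), 222 CPM in flown AL female 4 at 20 h (others at most 114 CPM) and 32.4 CPM in PT female control 5 at 20 h (others at most 6.2 CPM). MCINXTMP_004883 had 3030 CPM in flown AL female 6 at 20 h (others at most 1930 CPM). MCINXTMP_004829 had 164 CPM in flown PT female 6 at 1 h (others at most 90.8 CPM). MCINXTMP_003926 had 0.207 CPM in AL female control 3 at 20 h (others at 0) and 0 in PT female control 1 at 20 h (others at least 64.6 CPM). MCINXTMP_011680 had 28.7 CPM in flown PT male 2 (others at most 10.2 CPM) and 2.56 CPM in flown PT female 6 (others at most 0.519 CPM), both at 20 h.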

How the results depend on the processing

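No result reversed under any alternative. Of the counts of members called, flight at 1 h, both counts in males, the island (23 to 32) and the insert size (18 to 20) stayed within 1.5 times the reported value under every alternative run. At 20 h the count of 5 was 3 with no count filter and 3 with the 450 nt libraries alone, and ran from 1 to 6 with each of 31 butterflies left out. Within females it ran from 2 to 8 at 20 h with butterflies left out, and the count of 1 at 1 h was 0 with the 450 nt libraries alone and ran from 0 to 1 with butterflies left out. DESeq2 called 1 member for the sex difference in the flight effect. The choice of members itself depended on the data used: of the 60, 38 recurred with the 650 nt libraries alone, 35 with the 450 nt libraries alone and 23 with control butterflies alone, against 40 to 50 for the other settings of the rule (TMM-scaled totals, 2 added to the medians, means for medians, a median of at least 10 CPM in males) and 52 to 59 with a butterfly left out. Fewer libraries and fewer butterflies enter those choices. The cause of the other changes was not tested. Libraries were paired within butterflies for the insert size. No paired analysis was possible because, between groups, replicate numbers were given in accession order and pair no butterflies. With 4 and 5 control males per time, effects in males are the least precise, and members with few reads per female limit ratios at the low end.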
